A study of Picea abies with 40 samples.

Results

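Gene expression was compared between laser-captured stele 3 and the laser-captured QC area of Norway spruce (Picea abies) seedling roots, with 4 libraries on each side. These are 8 of the 40 RNA-seq libraries of the study and 8 of the 20 captured ones. The other captured groups were ground tissue, stele 1 and stele 2, again with 4 libraries each, and they served to place each large change at the stele number where it first passed a test. Another 20 libraries came from whole root segments, numbered zone 1 to zone 4 from the root tip and 5 per zone, and gave values that the captured comparison did not use. All seedlings were of the same species, untreated as far as the labels say, and grown on plates until about 2 days after germination.

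The stele is the central cylinder of a root. It holds the xylem, whose conducting cells carry water and in conifers are tracheids that thicken their walls and then die, and the phloem, which carries sugars. Close to a root tip stele cells still divide, and with distance from the tip they elongate and differentiate. In laser capture microdissection a laser frees selected cells from a section, so that such regions can be sequenced apart from their neighbours. The steles were taken from the elongation and differentiation zones, but the sources do not say which stele number lies where. QC is an abbreviation of the labels, which do not spell it out. The labels name no strain, and whether the libraries of a group stem from different seedlings or from pools is not stated. The p-values therefore measure the spread between libraries, which may be technical.

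Stele 3 libraries held 6.11 to 7.11 M counts and QC area libraries 8.59 to 9.34 M. Counts were found for 27332 to 29682 genes per stele 3 library and for 30139 to 33578 per QC area library. All QC area libraries were sequenced in lane 8 and all stele 2 libraries in lane 7. Stele 3 had replicate 1 in lane 8 and the other 3 in lane 7, and stele 1 had replicates 1 and 2 in lane 7 and replicates 3 and 4 in lane 8. The biological coefficient of variation, the spread between replicates beyond counting error, was 36.0% in the QC area, 47.8% in stele 1, 68.95% in stele 2 and 55.7% in stele 3. On the first principal component, with 58.2% of the variance, QC area libraries lay at 152 to 175 and stele 3 libraries at -255 to -217. Stele 1 libraries spread widely, with replicate 1 at -4.67 and replicate 3 at 124.9. The files pair no gene ID with a name, so genes are given by ID, and tissue markers could not be looked up.

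Most tested genes differed between stele 3 and the QC area. Of 27239 tested genes, 7737 (28.4%) were higher in stele 3 and 7824 (28.7%) lower, which is 57.1% of all. The test was edgeR's quasi-likelihood test, and p-values were adjusted by Benjamini-Hochberg over all tested genes with a threshold of 0.05. Higher genes made up 49.7% of those called. With libraries scaled by their total counts alone this share was 35.7%, since that scaling moved the median log2 fold change of all genes from -0.14 to -0.67. Within lane 8, where 1 stele 3 library met 4 of the QC area, 6442 genes were called higher and 7887 lower, with the lone library assumed to vary like the other groups. The libraries are bulk samples, in which fewer cells of a type and less RNA per cell cannot be told apart.

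Many of the differences were large. A change of at least 4-fold, a log2 fold change of 2 or more past the same test, was found for 4713 genes (17.3%) that were higher in stele 3 and for 4673 (17.2%) that were lower. They are called large rises and large falls here. Their median log2 fold changes were 4.31 and -3.56, with median standard errors of 0.81 and 0.86. The fitted size of a gene without counts in one group depends on a prior count of the fit. With such genes set to their bound at 3 counts over that group, the medians were 4.24 and -3.25. At these bounds, 1861 rises and 635 falls had a log2 fold change of at least 5, and 501 rises and 48 falls one of at least 8, so that rises outnumbered falls at the far end. Stele 3 libraries were the shallower ones, which keeps the bounds of falls smaller.

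**Figure D1:**
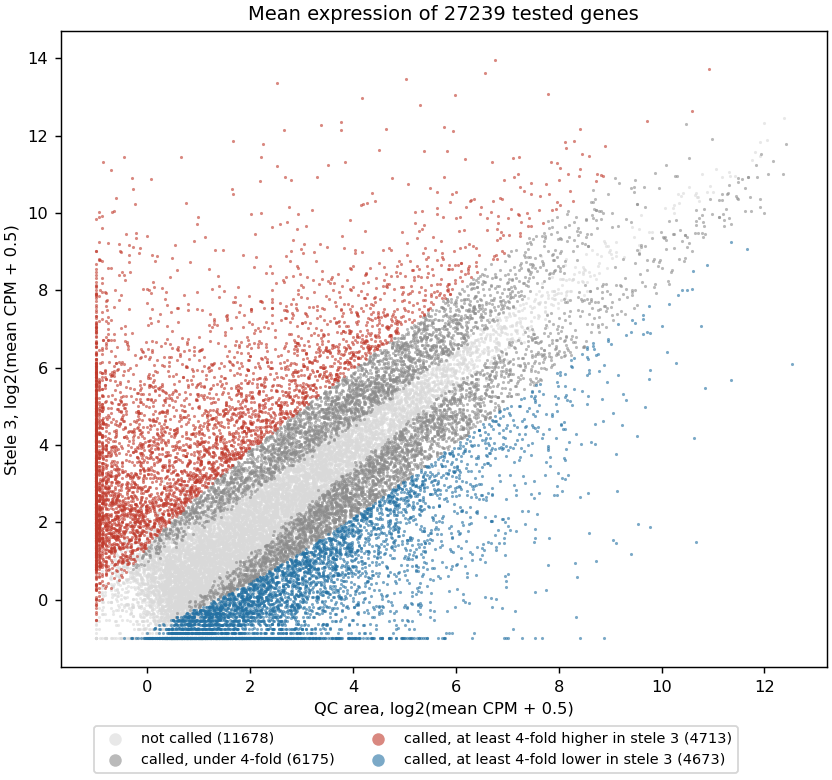
Mean expression of each tested gene in the QC area (horizontal axis) and in stele 3 (vertical axis), both as log2(mean CPM + 0.5) over 4 libraries, where CPM is counts per M of the scaled library total. The 4713 large rises (red) spread up to the level of the most abundant genes of stele 3, while many of the 4673 large falls (blue) lie along the bottom edge, where stele 3 had no count.

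The rises and falls also differed in level. The mean of QC area and stele 3 was at least 10 CPM for 2253 large rises (47.8%) and for 1174 large falls (25.1%). At 100 CPM or more there were 500 rises and 161 falls. The median of this mean was 9.03 CPM for rises, 3.18 CPM for falls and 5.77 CPM for all tested genes. No count at all was found in the 4 QC area libraries for 819 large rises, and none in the 4 stele 3 libraries for 1007 large falls. Stele 3 libraries were shallower, so that 3 counts over the group came to 0.141 CPM there and to 0.0726 CPM in the QC area. The same numbers over all tested genes are not given here, and the part of depth and level in them was not tested.

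The libraries of both groups rarely overlapped on these genes. Each stele 3 library lay above each QC area library for 4257 large rises (90.3%), and below for 4203 large falls (89.9%). Over all tested genes such a gap was found for 25.9% above and 27.6% below, and the rule for a large change itself favours genes without overlap. Stele 3 replicate 1, which shared lane 8 with the QC area, exceeded all 4 QC area libraries for 4538 large rises (96.3%) and stayed under them for 4402 large falls (94.2%). Over all tested genes this library lay above them for 37.3% and below for 43.7%, and it took part in the choice of the large changes. Among stele 3 libraries, replicate 2 was the least far from the QC area. It was the lowest of the 4 for 34.4% of large rises and the highest for 29.7% of large falls, against 15.6% to 16.7% of falls for each of the others.

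Large rises made up nearly as many counts in stele 3 as all other genes together. They took 49.98% of the counts at the highest of the 4 stele 3 libraries and 43.6% at the lowest, with a mean of 47.7% ± 2.79 (SD, n = 4). The same genes took 4.48% ± 0.41 (SD, n = 4) of QC area counts, 6.58% ± 0.98 of ground tissue counts, 11.6% ± 4.38 of those of stele 1 and 33.0% ± 5.35 of those of stele 2. Stele 1 ranged from 6.81% in replicate 3 to 17.4% in replicate 1, so that replicate 3 lay within the range of ground tissue, 5.78% to 8.01%. The genes were chosen by stele 3 and the QC area, so the shares of these groups are a description. Large falls took 18.3% ± 0.89 of the counts of the QC area, 15.5% ± 1.62 of ground tissue, 12.1% ± 2.60 of stele 1, 4.20% ± 1.40 of stele 2 and 1.37% ± 0.28 of stele 3 (SD, n = 4 each).

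**Figure D2:**
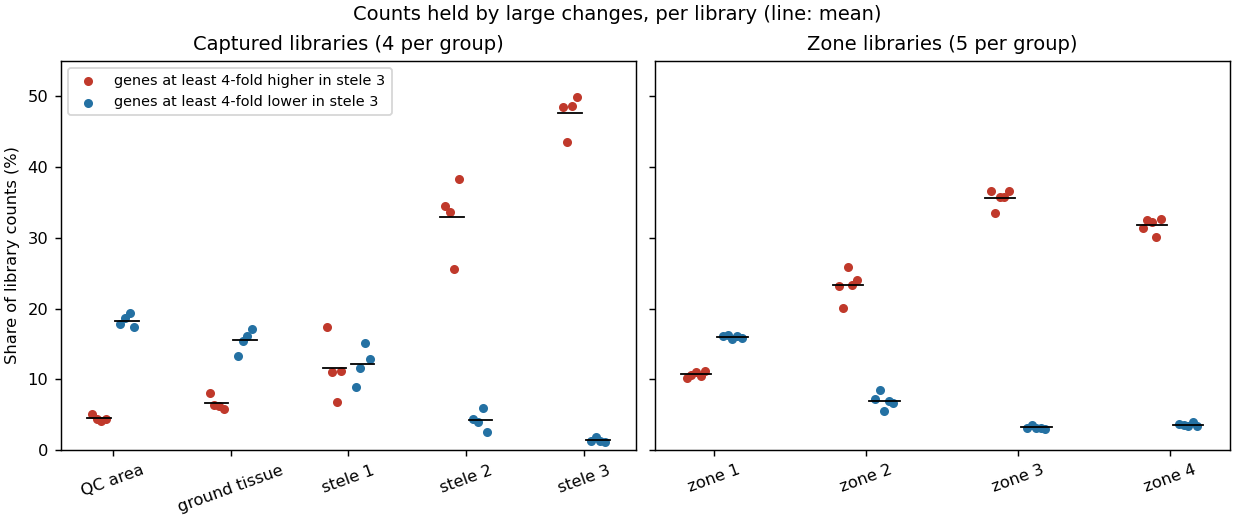
Share of each library's counts, in percent, held by large rises (red) and large falls (blue), with 1 point per library and a line at the group mean; captured groups stand on the left and zones on the right. The share of rises climbs from a mean of 4.48% in the QC area to 47.7% in stele 3, and in the zones, which did not enter the choice of genes, from 10.7% in zone 1 to 35.6% in zone 3 and 31.8% in zone 4.

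The zone libraries gave a separate measurement of the same genes. The share of counts held by large rises was 10.7% ± 0.40 in zone 1, 23.3% ± 2.10 in zone 2, 35.6% ± 1.25 in zone 3 and 31.8% ± 1.06 in zone 4 (SD, n = 5 each). The share of large falls was 15.96% ± 0.24, 6.96% ± 1.08, 3.18% ± 0.22 and 3.57% ± 0.25 in the same order. Zone 1 libraries did not overlap with those of any other zone in either share.

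Gene by gene, most large changes went the same way between zone 4 and zone 1. Of the 4713 large rises, 4138 were tested in the zone table and 575 were too low there. A higher level in zone 4 was called for 3394, which is 72.0% of all large rises, against a background of 40.6% of tested zone genes, while 268 were called lower. Of the 4673 large falls, 3761 were tested and 912 were too low. A lower level in zone 4 was called for 3267, which is 69.9% of all large falls, against a background of 37.5%, while 163 were called higher. The median log2 fold changes of the tested ones were 1.91 and -2.19, and that of all zone genes was 0.05. These differences were smaller than the captured ones, and the zones hold whole root segments, with the tissues around the stele included.

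Zones 3 and 4 held the extreme of most genes. Among tested large rises the mean was highest in zone 4 for 46.4% and in zone 3 for 41.4%, and among all zone genes for 33.2% and 18.7%. Among tested large falls the mean was lowest in zone 3 for 48.5% and in zone 4 for 43.5%, and among all zone genes for 20.2% and 29.9%. Whether a zone and a stele of equal number were taken at equal distance from the tip is not stated.

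The question of where along the steles each large change first appears was answered with the contrasts of stele 1, stele 2 and stele 3 against the QC area. The first stele of a gene is the lowest number at which it passed the test in the direction of stele 3 with at least a 2-fold difference, a log2 fold change of 1. These contrasts share the QC area libraries, and stele 3 passes by definition, so the counts describe the genes.

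Rises mostly appeared by stele 2, and many already at stele 1. Stele 1 was the first stele for 1579 large rises (33.5%), stele 2 for 2535 (53.8%) and stele 3 for 599 (12.7%). Falls passed this rule later: stele 1 was first for 162 large falls (3.47%), stele 2 for 2497 (53.4%) and stele 3 for 2014 (43.1%). Over all tested genes the same rule called 7.02% higher and 0.896% lower at stele 1, and 21.9% higher and 14.1% lower at stele 2. At stele 1, calls were thus rarer for falls than for rises in the whole table too. Stele 1 took a larger share of rises than of falls under each alternative that was run, left-out libraries included. This order is one of calls on a log2 scale, and other measures were divided. By log2 size without a test, the step from stele 2 to stele 3 was the largest for 61.3% of falls and 9.82% of rises. Shares of counts and calls in zone 2 did not show falls to lag. The share of counts held by falls went from 18.3% in the QC area to 12.1%, 4.20% and 1.37% in steles 1, 2 and 3. That of rises went from 4.48% to 11.6%, 33.0% and 47.7%. Zone 2 was called higher than zone 1 for 66.5% of all large rises (background 28.1%). It was called lower for 66.0% of all large falls (background 27.6%).

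The split of falls between steles 2 and 3 and the counts at stele 1 depended on the settings. Since QC area and stele 2 libraries share no lane, they could not be compared within one. With lane as a covariate, 1066, 2045 and 1113 large rises first appeared at steles 1, 2 and 3, and 96, 1228 and 2576 large falls, so that stele 3 replaced stele 2 as the most frequent first stele of falls. Other settings turned this order too. Falls first seen at stele 2 and at stele 3 numbered 1592 and 2959 when a log2 fold change of 2 was asked for at the first stele, 2639 and 2795 without the filter on low counts, and 2017 and 2421 when the first stele was placed by 0.5 of the stele 3 change. They numbered 2208 and 2532 without stele 2 replicate 4, 2436 and 2444 without stele 2 replicate 1, and 2228 and 2237 without QC area replicate 3. Without stele 1 replicate 1, 1132 rises first appeared at stele 1, and without stele 1 replicate 3 the count was 1852. For falls at stele 1 the count lay between 86, without stele 1 replicate 4, and 216, without stele 1 replicate 3, and it dropped to 89 to 102 when replicate 1 or 2 of stele 1 or replicate 2, 3 or 4 of the QC area was left out.

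**Figure D3:**
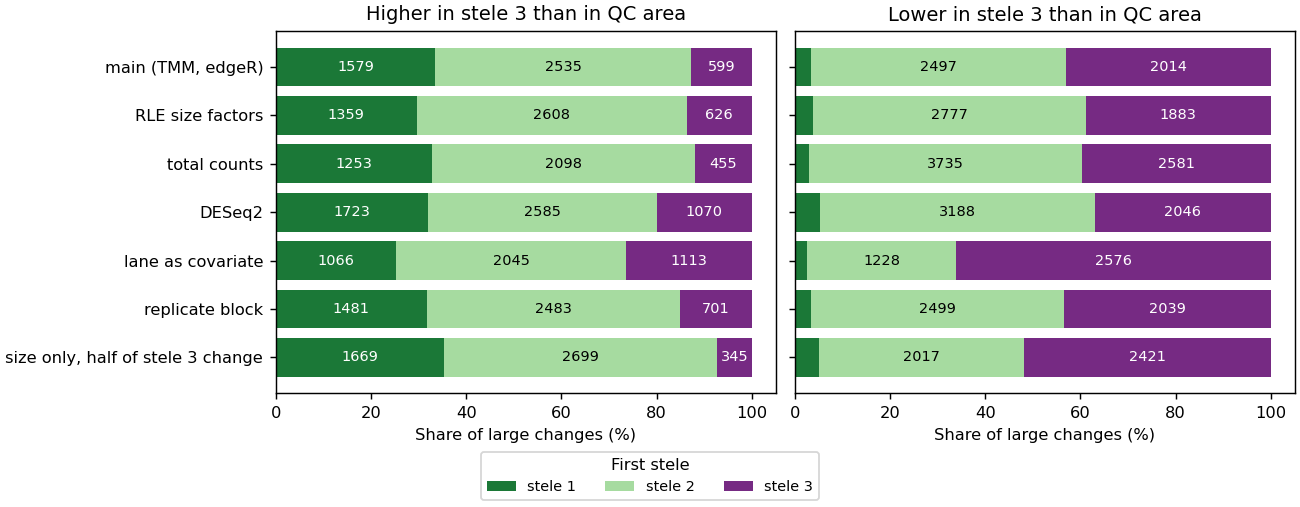
Share of large rises (left) and large falls (right) that first appeared at stele 1, 2 or 3, in percent, with the number of genes in each segment, for the main fit and 6 alternatives; the small stele 1 segments of the falls, 162 genes in the main fit, carry no number. Stele 1 takes a larger share of rises than of falls in each row, and the lane covariate gives stele 3 its largest share of falls among these rows.

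Single libraries were also set against the QC area without a test. Among stele 1 libraries, the share of large rises above all 4 QC area libraries was 41.9% in replicate 3, 62.9% in replicate 4, 63.5% in replicate 2 and 67.5% in replicate 1, where the share over all tested genes was 24.1%, 32.2%, 30.9% and 35.2%. Stele 2 libraries reached 85.5% to 95.4%, against 35.7% to 38.6% of all tested genes, and ground tissue 32.3% to 44.7%, against 23.2% to 27.4%. The share of large falls below all 4 QC area libraries was 32.2% in stele 1 replicate 3 and 64.6% in replicate 1, against 17.7% and 31.6% of all tested genes. It was 78.0% to 85.9% in stele 2, against 32.5% to 42.1%, and 22.7% to 42.3% in ground tissue, against 20.5% to 23.8%. The large changes were chosen with the same QC area libraries, which by itself raises their shares. Stele 1 replicate 3 lay within the range of ground tissue in both shares of large changes.

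Genes that rose early were also the more abundant ones. For rises first seen at stele 1 the median level was 1.25 CPM in the QC area and 42.6 CPM in stele 3. The medians went from 0.41 to 13.7 CPM for those first seen at stele 2, and from 0.56 to 5.29 CPM for those first seen at stele 3. Among falls the medians went from 15.2 to 0.24 CPM, from 11.1 to 0.74 CPM and from 3.03 to 0.27 CPM in the same order. A low gene passes a test less easily, and the part of this in the order of first steles was not tested.

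Early rises had most of their size by stele 2. Their median log2 fold change against the QC area was 2.90 at stele 1, 4.46 at stele 2 and 4.75 at stele 3. Rises first seen at stele 2 had medians of 0.96, 3.59 and 4.47, and those first seen at stele 3 had 0.29, 1.56 and 3.07. Falls first seen at stele 1 had medians of -3.003, -5.22 and -5.83, those of stele 2 had -0.57, -2.31 and -3.75, and those of stele 3 had -0.26, -1.09 and -3.23. With genes lacking counts set to their bounds, the stele 3 medians were 4.67, 4.38 and 3.07 for rises and -4.44, -3.53 and -2.96 for falls, in the order of the first stele. In both classes of stele 3 the median had thus moved before the test was passed. The classes were set by size and test at each stele, which by itself separates their medians at steles 1 and 2.

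**Figure D4:**
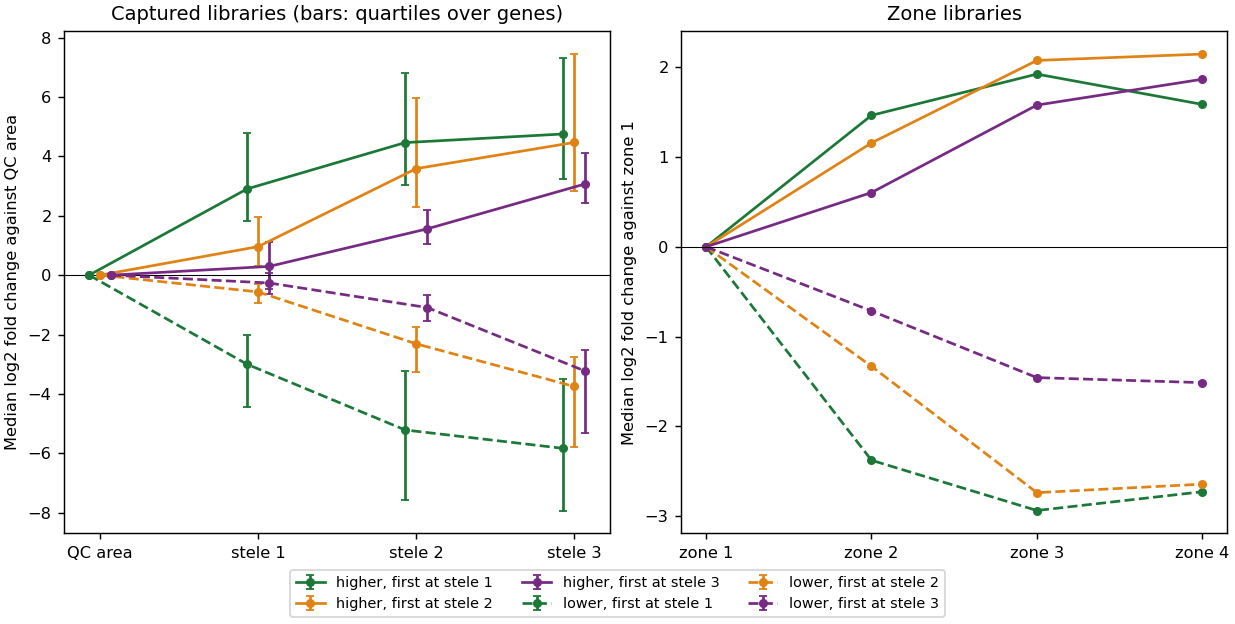
Median log2 fold change of large rises (solid lines) and large falls (dashed lines) by first stele, in the captured groups against the QC area on the left, with bars for the quartiles over genes, and in the zones against zone 1 on the right. Rises first seen at stele 1 have a median of 2.90 at stele 1 and 1.47 in zone 2, and those first seen at stele 3 have 0.29 and 0.60. The captured values set the classes, and the zone values did not.

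The zones, which took no part in this placing, ordered the classes in zone 2 in the same way for rises. A higher level in zone 2 than in zone 1 was called for 82.8% of all rises first seen at stele 1, 64.0% of those first seen at stele 2 and 33.9% of those first seen at stele 3, against a background of 28.1%. Counted over the members tested there, these were 1308 of 1460, 1623 of 2200 and 203 of 478. Falls called lower in zone 2 were 63.6%, 78.2% and 51.0% of all members of their classes, against a background of 27.6%, and 103 of 111, 1952 of 2090 and 1028 of 1560 of those tested. The median log2 fold changes in zone 2 were 1.47, 1.16 and 0.60 for the 3 classes of rises, and -2.38, -1.33 and -0.71 for those of falls. Levels differ between these classes, as given above, and the part of that in the calls was not tested.

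By zone 4 this order among rises was gone. Medians there were 1.59, 2.15 and 1.87 for rises of steles 1, 2 and 3. The mean of rises first seen at stele 1 was highest in zone 3 for 47.0% of the tested ones and in zone 4 for 33.6%, whereas zone 4 was highest for 51.6% and 61.9% of those of steles 2 and 3. Falls of the 3 classes had medians of -2.73, -2.65 and -1.51 in zone 4.

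Contrasts between neighbouring groups asked at which step the difference itself passed the test. Among large rises, 1657 (35.2%) passed from the QC area to stele 1, 2497 (53.0%) from stele 1 to stele 2 and 630 (13.4%) from stele 2 to stele 3. The background of genes called higher was 8.42%, 12.4% and 3.85% for these steps. Among large falls, 172 (3.68%), 1534 (32.8%) and 1519 (32.5%) passed, with a background of 1.03%, 8.97% and 9.16%. Rises thus passed least often at the last step. For falls the order of the last 2 steps turned with single libraries, since 1155 passed from stele 1 to stele 2 and 2037 from stele 2 to stele 3 without stele 2 replicate 4, and 1784 and 1131 without stele 2 replicate 3. No single step passed for 1380 large rises (29.3%) and 2165 large falls (46.3%), although the whole difference did. All 3 steps passed for 119 rises and 9 falls.

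Fewer genes passed a step within a lane, where fewer libraries were left. From the QC area to stele 1 in lane 8, with 4 and 2 libraries, 445 large rises (9.44%) and 125 large falls (2.67%) passed. The background was 1.93% and 0.643% of the genes tested there. From stele 1 to stele 2 in lane 7, with 2 and 4 libraries, 584 rises (12.4%) and 47 falls (1.01%) passed, against 2.0% and 0.177%. From stele 2 to stele 3 in lane 7, with 4 and 3 libraries, 98 rises (2.08%) and 113 falls (2.42%) passed, against 0.351% and 0.478%. Stele 1 libraries also differed between the lanes. Large rises held 17.4% and 11.1% of their counts in lane 7 and 6.81% and 11.1% in lane 8, and the part of this was not tested. For the whole difference, lane 8 held 1 stele 3 library and 4 of the QC area. The lone library was assumed to vary like the other groups. These libraries also took part in choosing the large changes, which by itself raises the shares that pass. The shares for the whole difference are therefore a description and no separate test. The whole difference passed within lane 8 for 3939 of the large rises (83.6%) and 3791 of the large falls (81.1%), against 21.7% and 26.6%.

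By size alone, the largest step of a rise lay between the QC area and stele 1 for 2093 genes (44.4%), between stele 1 and stele 2 for 2157 (45.8%) and between stele 2 and stele 3 for 463 (9.82%). For falls the last step was the most frequent, with 251 (5.37%), 1557 (33.3%) and 2865 (61.3%) in the same order. The count of largest steps was chosen after the data had been seen and carries no test, and for genes without counts in a group it rests on the prior of the fit.

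Most large changes were also seen against ground tissue, the other captured group that the labels do not call a stele. Ground tissue libraries carry endo in their names, which the labels do not spell out. Stele 3 exceeded ground tissue for 4228 large rises (89.7%), with a background of 26.8%, and lay below it for 4244 large falls (90.8%), with a background of 28.2%. The opposite call was made for 12 rises and for no fall. Both contrasts hold the same stele 3 libraries, so the counts stand side by side as a description.

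The named genes were taken by a fixed rule as the largest changes, so their size is what chose them. The largest gain and the largest loss were taken by CPM. The other genes were taken by their fitted log2 fold change, at stele 3 or at their first stele, and had to lack overlap with the QC area. Their order is that of the fitted log2 fold change, which for a gene without counts in a group rests on the prior of the fit, so the counts do not settle the order among such genes. MA_76825g0010 had the largest fitted rise. QC area and ground tissue libraries had no count of it, and it reached 1191, 1243, 545 and 673 CPM in the stele 3 libraries, given here and below in the order of replicates 1 to 4. All stele 3 libraries were high, and the lack of overlap between the groups was part of the rule. Stele 3 was at least 12578-fold higher than the floor of 3 counts over the 4 QC area libraries, with an adjusted p of 2.49e-06. In stele 2 its levels were 180, 538, 118 and 185 CPM. In stele 1 they were 8.58, 0, 0.31 and 0.61 CPM, so that replicate 1 held 44 of the 52 counts, and stele 1 was at least 32.7-fold above the floor, or at least 4.21-fold without replicate 1. The call at stele 1 had an adjusted p of 0.0456, was lost without stele 1 replicate 1 at an adjusted p of 0.224, and was lost under 17 of the 24 alternatives. In the zones its median level went from 2.0 CPM in zone 1 to 78.1 CPM in zone 4, with no overlap between the libraries of these zones.

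MA_239561g0010 had the next largest fitted rise. In stele 3 it had 2572, 1971, 2014 and 3565 CPM, and in the QC area 2 counts in all, 1 each in replicates 1 and 4. All 4 stele 3 libraries lay far above the QC area. The ratio was 52481, with a 95% interval of 14527 to 433360 that covers counting error only, and the adjusted p was 1.65e-08. This ratio exceeds the bound of MA_76825g0010, so which of the pair rose more is not settled by the counts. Its levels were 866, 828, 286 and 778 CPM in stele 2 and 49.7, 32.7, 0.41 and 13.2 CPM in stele 1, so that stele 1 replicate 3 was close to ground tissue at 0.36 to 1.58 CPM. Stele 1 passed with an adjusted p of 0.000109. The zone medians were 2.48, 144, 678 and 405 CPM from zone 1 to zone 4, highest in zone 3.

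MA_10427724g0050 gained the most CPM and was the most abundant gene of stele 3. Its levels were 16568, 10596, 18829 and 17353 CPM in stele 3 and 57.8, 77.4, 84.6 and 209 CPM in the QC area. The groups lay far apart, with QC area replicate 4 the highest of its group. The log2 fold change was 7.21 with an SE of 0.92 and an adjusted p of 2.24e-06. In stele 2 the levels were 8930, 4760, 4846 and 22220 CPM, and in stele 1 they were 1751, 422, 158 and 300 CPM. Stele 1 passed with a log2 fold change of 2.62, an SE of 0.74 and an adjusted p of 0.0289. Within lane 8 that change was 1.03 with an adjusted p of 0.558, and without stele 1 replicate 1 it was 1.46 with an adjusted p of 0.254. Ground tissue had 1042, 544, 87.3 and 315 CPM, which overlaps stele 1.

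MA_25199g0020 had the largest fitted fall. Its levels in the QC area were 751, 334, 327 and 476 CPM, and no stele 3 library had a count. Stele 3 was at least 3350-fold lower, against the floor of 3 counts over its 4 libraries, with an adjusted p of 2.33e-07. In stele 1 it had 77.2, 42.2, 88.0 and 17.1 CPM, all under the QC area, and in stele 2 there were 16 counts in all, 11 of them in replicate 1. Stele 1 lay in the range of ground tissue, which had 13.5 to 79.5 CPM, except for replicate 3 at 88.0 CPM. The log2 fold change at stele 1 was -3.07 with an SE of 0.67 and an adjusted p of 0.00636. Within lane 8 it was -3.20 with an adjusted p of 0.0871. Its zone medians were 13.1 CPM in zone 1 and 0.19 CPM in zone 2.

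MA_17738g0010 came next among the falls, at 331, 328, 321 and 384 CPM in the QC area and no count in stele 3. The QC area libraries were close together. Stele 3 was at least 2423-fold lower, with an adjusted p of 1.66e-06. Its levels were 28.7, 55.3, 116 and 29.6 CPM in stele 1 and 0, 1.58, 8.03 and 0 CPM in stele 2. Stele 1 passed narrowly, with a log2 fold change of -2.57, an SE of 0.76 and an adjusted p of 0.0428, and the call was lost under 11 of 24 alternatives, at adjusted p-values of up to 0.131. MA_13356g0010 lost the most CPM and was the most abundant gene of the QC area. It had 6920, 5086, 5087 and 6583 CPM in the QC area, 98.9, 79.7, 68.9 and 21.1 CPM in stele 3, and 295, 248, 736 and 110 CPM in stele 2. Each stele 3 library was below each stele 2 library, and the step between these groups passed with a log2 fold change of -2.37, an SE of 0.47 and an adjusted p of 0.00325. Its zone medians were 1301, 187, 11.3 and 17.9 CPM, so that zone 1 was highest.

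**Figure D5:**
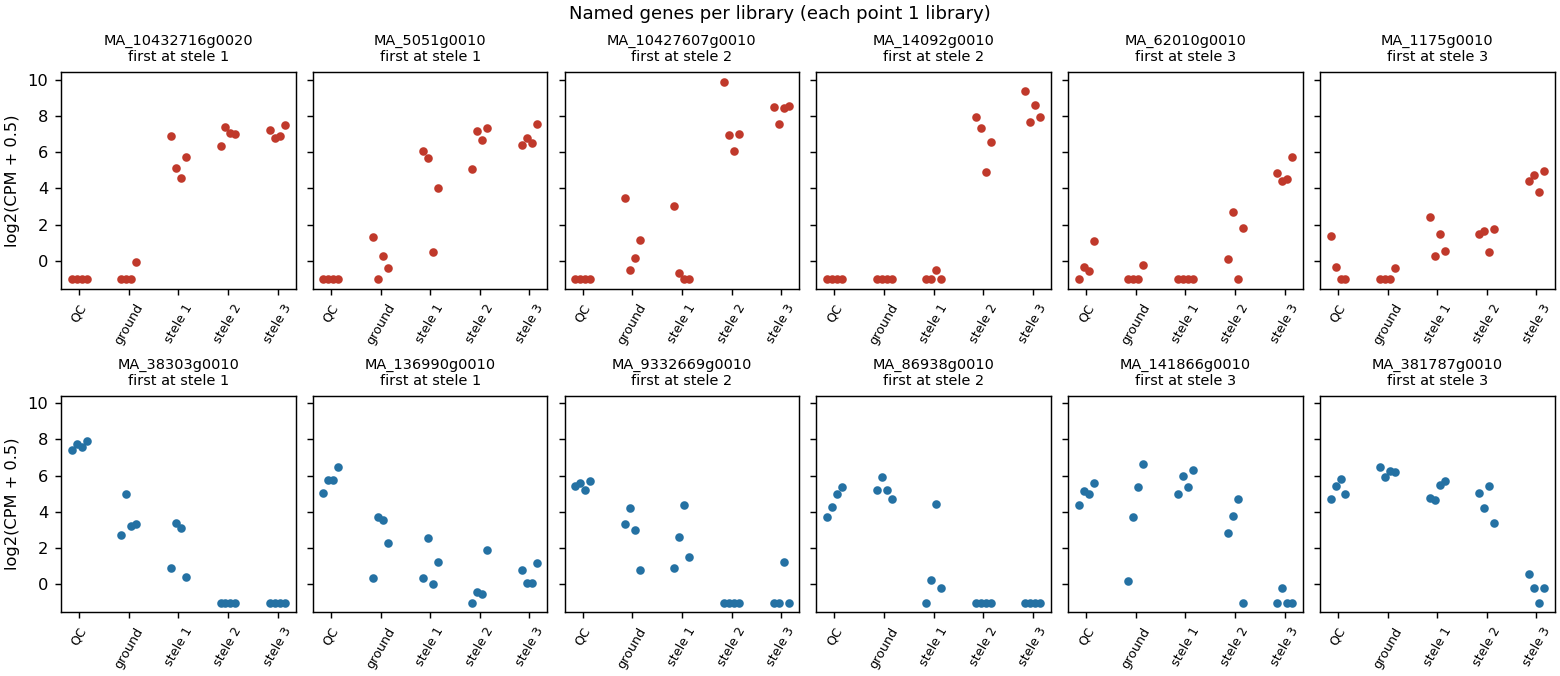
Levels of the 12 genes named by first stele, as log2(CPM + 0.5), with 1 point per captured library in the order of its replicate number; the top row holds rises and the bottom row falls, from stele 1 on the left to stele 3 on the right. MA_381787g0010 at the bottom right stays at 9.85 CPM or more in all other captured groups and lies at 1.02 CPM or less in stele 3.

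Of the rises first seen at stele 1, 514 were abundant enough and free of overlap for the rule. MA_10432716g0020 led them, without any QC area count and with 116, 34.8, 23.1 and 53.4 CPM in stele 1. All 4 stele 1 libraries were above zero, and so were the stele 2 libraries at 80.2, 169, 132 and 130 CPM and the stele 3 libraries at 151, 108, 117 and 184 CPM. Stele 1 was at least 783-fold higher than the floor, with an adjusted p of 7.42e-06, and at least 511-fold without its replicate 1. It did not pass from stele 2 to stele 3, where the log2 difference was 0.13 with an SE of 0.46. MA_5051g0010 also lacked QC area counts, and had 66.1, 50.7, 0.92 and 15.6 CPM in stele 1, with replicate 3 far below the rest. Its levels were 32.5, 142, 102 and 159 CPM in stele 2 and 83.1, 111, 91.5 and 184 CPM in stele 3, which overlap. Stele 1 was at least 459-fold above the floor with an adjusted p of 0.000426. In the zones its median was 44.5 CPM in zone 2, 47.1 CPM in zone 3 and 23.0 CPM in zone 4, against 5.99 CPM in zone 1.

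Of the rises first seen at stele 2, 654 met the rule. MA_10427607g0010 was not counted in any QC area library, and had 931, 123, 65.8 and 126 CPM in stele 2 and 355, 187, 351 and 372 CPM in stele 3. Stele 2 replicate 1 stood far above the other stele 2 libraries, and stele 1 replicate 1 at 7.80 CPM held 40 of the 41 counts of stele 1. Stele 2 was at least 4292-fold above the floor with an adjusted p of 7.88e-05, and at least 1447-fold without its replicate 1. In the zones the gene went on climbing, with medians of 17.5, 163, 444 and 985 CPM from zone 1 to zone 4. MA_14092g0010 was absent from the QC area and from ground tissue and had 2 counts in stele 1. It had 245, 162, 29.1 and 95.4 CPM in stele 2 and 663, 199, 389 and 248 CPM in stele 3. Stele 2 was at least 1832-fold above the floor, with an adjusted p of 9.51e-07. Zone libraries showed the same absence at the tip, with 0.22 CPM or less in zone 1 and medians of 65.0, 494 and 1125 CPM in zones 2, 3 and 4.

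Rises first seen at stele 3 were fewer and lower, with 71 that met the rule. MA_62010g0010 had 0, 0.28, 0.18 and 1.63 CPM in the QC area, no count in stele 1, 0.58, 6.003, 0 and 3.03 CPM in stele 2, and 28.4, 20.3, 22.1 and 52.6 CPM in stele 3. Each stele 3 library exceeded each other captured library. The log2 fold change was 5.87 with an SE of 1.16 and an adjusted p of 0.000409, and it was 7.44 without QC area replicate 4, which held 16 of the 21 counts of its group. The step from stele 2 passed too, at 3.66 with an SE of 1.01 and an adjusted p of 0.0261. In the zones there was no count in zone 1, and the medians were 1.14, 14.8 and 32.9 CPM in the others. QC area levels of MA_1175g0010 were 2.11, 0.28, 0 and 0 CPM, and it had 0.68 to 4.87 CPM in stele 1, 0.88 to 2.90 CPM in stele 2 and 20.5, 26.0, 13.3 and 30.1 CPM in stele 3. Its log2 fold change was 5.24 with an SE of 0.97 and an adjusted p of 0.000153, or 7.69 without QC area replicate 1, which held 20 of the 23 counts. It had 10 counts over all 20 zone libraries and was not tested there.

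Falls first seen at stele 1 numbered 73 under the rule. MA_38303g0010 had 168, 214, 195 and 239 CPM in the QC area, 1.36, 9.84, 8.10 and 0.85 CPM in stele 1 and no count in stele 2 or stele 3. Stele 1 lay below the QC area by a log2 fold change of -5.31, with an SE of 0.73 and an adjusted p of 0.000426. Ground tissue, at 6.20 to 31.0 CPM, was also far below the QC area. The zones repeated this, with 38.5 to 51.5 CPM in zone 1 and at most 0.21 CPM in any library of the other zones. MA_136990g0010 had 32.0, 53.0, 54.5 and 89.1 CPM in the QC area and 0.78, 5.33, 0.51 and 1.83 CPM in stele 1. The log2 fold change was -4.75 with an SE of 0.94 and an adjusted p of 0.00232. Later steps did not pass, and stele 3 had 1.22, 0.57, 0.55 and 1.79 CPM.

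Falls first seen at stele 2 were the largest class with abundant genes, 994 under the rule. MA_9332669g0010 had 42.2, 48.2, 36.7 and 51.3 CPM in the QC area, 1.36, 5.74, 20.4 and 2.31 CPM in stele 1 and no count in stele 2. Stele 2 was at least 577-fold lower, with an adjusted p of 2.71e-05. In stele 3 replicate 3 held all 10 counts, at 1.82 CPM, and the log2 fold change was -6.54 with an SE of 1.14 and an adjusted p of 0.000129. Without that library stele 3 had no count. MA_86938g0010 had QC area levels of 12.7, 18.7, 31.1 and 41.3 CPM, with 25.4 to 61.4 CPM in ground tissue and no count in stele 2 or stele 3. Stele 1 held 213 counts, of which 205 were in replicate 3, at 21.0 CPM. Stele 2 was at least 336-fold lower than the QC area with an adjusted p of 0.000617.

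In zone 4 neither gene was called lower than in zone 1. MA_9332669g0010 had medians of 2.71 CPM in zone 1, 0.72 CPM in zone 2, 0.47 CPM in zone 3 and 5.37 CPM in zone 4. Zones 2 and 3, at 1.03 CPM or less, lay below each zone 1 library, and zone 4 was higher than zone 1, with a log2 fold change of 0.88, an SE of 0.32 and an adjusted p of 0.0151. MA_86938g0010 had medians of 12.6 CPM in zone 1, 0.22 CPM in zone 2, 0.69 CPM in zone 3 and 11.1 CPM in zone 4. Its levels were thus low in zones 2 and 3 alone, and zone 4 against zone 1 did not pass, with a log2 fold change of -0.05, an SE of 0.26 and an adjusted p of 0.860.

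Falls first seen at stele 3 included 157 under the rule. MA_141866g0010 had 20.1, 34.7, 31.9 and 47.2 CPM in the QC area, 31.2, 61.9, 41.4 and 78.5 CPM in stele 1 and 6.67, 13.3, 25.5 and 0 CPM in stele 2. In stele 3 it had 2 counts, both in replicate 2. The QC area was 358 times stele 3, with a 95% interval of 98.8 to 2956 that covers counting error only, and the adjusted p was 0.000255. Ground tissue varied widely, from 0.65 to 99.5 CPM. No zone 4 library had a count, and the zone 1 median was 19.0 CPM.

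MA_381787g0010 was not called different from the QC area before stele 3. At stele 2 its log2 fold change was -0.60, with an SE of 0.40 and an adjusted p of 0.238. It had 25.8, 42.5, 55.8 and 30.9 CPM in the QC area, 26.7, 24.3, 44.8 and 51.8 CPM in stele 1, 32.3, 18.3, 41.9 and 9.85 CPM in stele 2 and 60.7 to 88.7 CPM in ground tissue. In stele 3 it had 1.02, 0.38, 0 and 0.36 CPM, below every other captured library. The log2 fold change was -6.46 with an SE of 0.59 and an adjusted p of 5.25e-08, and the step from stele 2 to stele 3 was -5.87 with an SE of 0.59 and an adjusted p of 1.54e-05. Its zone medians were 84.4, 53.5, 8.56 and 14.4 CPM, with zones 3 and 4 below zones 1 and 2 in each library.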

How the data were processed

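The values are raw read counts per gene ID, deposited by the authors as whole numbers in 1 table of 20 captured and 1 table of 20 zone libraries. The submitters' processing notes name Trimmomatic, STAR and HTSeq. No source used here gives versions, genome build, gene models or strandedness. Counts of overlapping, antisense or near-identical genes are therefore uncertain. Per the labels' protocols, RNA of zones and captured regions was extracted differently, so no zone was tested against a captured group. Columns of the captured table headed neither QC nor endo were taken as steles, by elimination. Library totals were 4.94 to 11.99 M captured and 3.53 to 7.25 M zone counts. No replicates were merged.

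Both tables were fitted separately by edgeR 4.0.16 under R 4.3.3 (filterByExpr, TMM, glmQLFit on all groups of the table, group as the single term, glmQLFTest, Benjamini-Hochberg over all tested genes, threshold 0.05). This left 27239 of 70736 captured IDs and 27767 zone IDs. CPM are counts per M of the TMM-scaled library total. The SE is the size of the log2 fold change divided by the square root of F. The procedure was run on simulated counts with 200 changed genes of random direction. Far more genes were called in the data, so that run did not test the scaling under changes this broad. A fold against a group without counts is a bound at 3 counts over the group. Ratios against 1 to 3 counts have exact binomial 95% intervals. Both cover counting error only.

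Genes named are the 2 largest rises and falls among called genes that averaged 10 CPM or more without overlap, the same per first stele and direction, and the largest gain and loss in CPM. Alternatives were RLE and total-count scaling, DESeq2 1.42.0, no filter, lane as a covariate or held fixed, a replicate block, fewer groups in the fit, other fold limits and each library left out. The comparison, lists and rules were chosen with earlier results of these data known. Marker lists by gene name could not be applied, since the files pair no ID with a name.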

Additional observations from a re-analysis of the deposited data

Results flagged for a closer look

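Single libraries stood apart from the other 3 of their group in 20 of 90 checks by Dixon's test at 95%. It flags about 1 in 20 groups of normally distributed values by chance. CPM near zero are not so distributed, and a group with counts in only 1 library is always flagged, as for some genes below. Stele 3 replicate 2 held 1.79% of its counts in large falls, against at most 1.26% in the other stele 3 libraries.

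Stele 1 replicate 1 was the highest of its group for MA_76825g0010 at 8.58 CPM, for MA_10427607g0010 at 7.80 CPM and for MA_10427724g0050 at 1751 CPM. Stele 1 replicate 3 was the highest for MA_86938g0010 at 21.0 CPM and for MA_14092g0010 at 0.205 CPM, where it held the only 2 counts. In stele 2 the highest libraries were replicate 2 for MA_76825g0010 at 537.9 CPM, replicate 1 for MA_10427607g0010 at 931 CPM and replicate 4 for MA_136990g0010 at 3.28 CPM. The lowest was replicate 3 for MA_239561g0010 at 286 CPM. In stele 3 replicate 2 was the lowest for MA_10427607g0010 at 187 CPM, and it held the only counts of MA_141866g0010 at 0.377 CPM. Replicate 3 held the only counts of MA_9332669g0010 at 1.82 CPM.

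In the QC area the highest libraries were replicate 4 for MA_17738g0010 at 384 CPM and replicate 1 for MA_1175g0010 at 2.11 CPM. In ground tissue they were replicate 1 for MA_10427607g0010 at 10.8 CPM and replicate 2 for MA_38303g0010 at 31.0 CPM. Ground tissue replicate 4 was the highest, at 3 to 5 counts, for MA_10432716g0020 at 0.448 CPM, MA_62010g0010 at 0.358 CPM and MA_1175g0010 at 0.269 CPM. The cause of these differences was not tested.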

How the results depend on the processing

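The counts of called genes and of large changes stayed within 1.5 times of the reported ones under all alternatives, apart from large falls with another fold limit, 7023 at a log2 fold change of at least 1 and 2962 at 3. Leaving out single libraries gave 4658 to 5024 large rises and 4526 to 5071 large falls. The placing along the steles moved more, and the cause was not tested. Total-count scaling gave 377 rises and 2441 falls that passed from stele 2 to stele 3, 257 rises with their largest step there and 404 falls with their largest step from the QC area to stele 1. DESeq2 gave 1070 rises first seen at stele 3, 297 falls first seen at stele 1, 1007 rises that passed from stele 2 to stele 3, 361 falls that passed to stele 1, and 731 rises and 462 falls with their largest step in those 2 places. Without the filter on low counts these were 1654 rises first seen at stele 3, and 881 and 417 by largest step. With lane as a covariate 1113 rises were first seen at stele 3, 96 and 1228 falls at steles 1 and 2, 1102 rises and 97 falls passed to stele 1, and 965 falls passed to stele 2. Within single lanes 445 rises passed to stele 1, 584 rises and 47 falls to stele 2, and 98 rises and 113 falls to stele 3, from fewer libraries. Without ground tissue in the fit, 103 falls were first seen at stele 1 and 107 passed that step. Asking for a log2 fold change of 2 at the first stele gave 1110 rises at stele 3 and 1592 falls at stele 2, and placing by 0.5 of the stele 3 change without a test gave 345 rises at stele 3.

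Leaving out 1 library at a time gave 86 to 216 falls first seen at stele 1, 616 to 924 rises first seen at stele 3, and 87 to 229 falls that passed to stele 1. It gave 959 to 1784 falls that passed to stele 2, the lowest without stele 1 replicate 3, and 344 to 785 rises and 1131 to 2037 falls that passed to stele 3, the lowest of both without stele 2 replicate 3 and the highest of falls without stele 2 replicate 4. Falls with their largest step at stele 1 ranged from 200 to 456, the highest without stele 1 replicate 3.

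The labels do not state that equal replicate numbers share a source. Library names of the QC area, ground tissue and stele 1 do share a prefix for equal replicate numbers. Deviations of same-numbered stele 3 and QC area libraries correlated at -0.042 to 0.033, and none correlated best with its own number. For stele 1 and the QC area the correlations were -0.064 to 0.123, at 0.114 and 0.123 for replicates 1 and 3, which correlated best with their own numbers. Replicate 3 did so for stele 2 with the QC area, and replicates 3 and 4 for stele 3 with stele 2, at 0.072 or less. No pair of groups that was checked had all 4 correlations over 0.1, so the numbers were not taken to pair the libraries. Ground tissue was not checked against the QC area or stele 1. With the replicate number as a block, 7565 genes were higher and 7644 lower, and no count moved by over 1.5 times. All 18 named genes kept the direction and call of their stele 3 difference under every alternative run. They were chosen as the largest changes of these libraries, which by itself favours this. Calls at stele 1 were less steady. MA_76825g0010 lost its call under 17 alternatives, MA_17738g0010 under 11, MA_10427724g0050 under 6 and MA_25199g0020 under 1.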

Other observations

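Some of the most abundant genes of stele 3 were nearly missing from the zone libraries. Of 2910 large rises with at least 10 CPM in stele 3, 50 (1.72%) had at most 20 counts over all 20 zone libraries, and 33 of these had none. At 100 CPM or more there were 18 of 802 (2.24%), and at 1000 CPM or more 5 of 117 (4.27%). Among all tested genes with at least 10 CPM in stele 3, these rises included, the share was 0.798% (78 of 9775). Among large falls with at least 10 CPM in the QC area the share was 0.461%. No share over all tested genes was taken at 100 or 1000 CPM, so the climb with level is not shown to be particular to rises. The 50 genes held 1.68% ± 0.26 of the counts in stele 3, 0.514% ± 0.141 in stele 2, 0.0814% ± 0.0332 in stele 1, 0.102% ± 0.0229 in ground tissue and 0.0426% ± 0.00885 in the QC area (SD, n = 4 each).

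MA_464653g0010, chosen after its values were seen, had 7958, 5778, 8519 and 9943 CPM in stele 3 and 33.5, 18.1, 9.92 and 8.95 CPM in the QC area, with no zone count. Its log2 fold change was 8.84 with an SE of 0.56 and an adjusted p of 2.36e-09 by edgeR. The most abundant gene of stele 3, MA_10427724g0050, had 31 zone counts in all. Whole segments of zones 2 to 4 contain stele, and RNA extraction differed between both kinds of sample. The cause was not tested.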
